A study of Mus musculus with 8 samples.

Results

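The nuclear genes for subunits of the mitochondrial oxidative phosphorylation complexes were examined in mouse muscle stem cells that were control or heterozygous for RhoA. The genes were chosen by symbol alone: Nduf names with the class letters a, b, c, s or v, Sdha to Sdhd, names beginning with Uqcr, with Cox and a digit from 4 to 8, or with Atp5. Of 97 genes that matched, 8 with "-ps" in the symbol were left out, and 89 of the 57180 genes in the table remained, under 88 symbols because Atp5o stands for a pair of gene records. No measured value entered this choice. The count filter kept 83 of the 89 for testing. The genes below it were Cox8c, Cox7b2, Cox6c2, Ndufa11b, Ndufs6b and the shorter Atp5o record.

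Muscle stem cells are the resident progenitors of skeletal muscle, and here they were purified by flow cytometry and taken to RNA without culture. The control group, titled WT, held 4 libraries, numbered 2, 5, 7 and 8. The RhoA het group held 4 libraries, numbered 5, 6, 7 and 8; the design text names its mice SC-RhoAfl/+, that is, with 1 floxed copy of the gene for the small GTPase RhoA, and the genotype field reads RhoA knockdown. The Cre driver, the age of the mice and the muscles used are not given in the sources used here. The labels also do not say that each library came from its own animal, so the p-values measure the spread between these libraries, which may be partly technical.

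Oxidative phosphorylation couples the oxidation of NADH and succinate to ATP synthesis in the inner mitochondrial membrane. Complex I (NADH dehydrogenase), complex II (succinate dehydrogenase), complex III (the cytochrome bc1 complex) and complex IV (cytochrome c oxidase) pass electrons to oxygen, and complex V (ATP synthase) uses the proton gradient that complexes I, III and IV build. Most subunits are encoded in the nucleus and a small core in mitochondrial DNA, complex II being wholly nuclear. Quiescent muscle stem cells are known for few mitochondria and low respiration, and several complex IV subunits exist as pairs of a widely expressed form and a form restricted to muscle, lung, testis or other tissues.

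Libraries held 19138763 to 25606342 counts, of which the 89 genes took 0.792% to 0.921%. RhoA, the targeted gene, had a mean of 325 ± 46.3 CPM (counts scaled to a common library total; SD, n = 4) in control and 265 ± 14.4 (SD, n = 4) with the floxed copy. Its log2 fold change was -0.29 (SE 0.13), with an unadjusted p of 0.0495 and an adjusted p of 1 in edgeR's quasi-likelihood test. Control 2 and RhoA het 6 stood apart with 15179 and 15137 counts from the Y chromosome against 218 to 677 in the other 6 libraries, so results are also given without both. The 8 muscle stem cell markers summed to 7557 to 11524 TPM (a level corrected for gene length) in control and 7289 to 13127 TPM in RhoA het libraries. Sdc4 made up most of each sum, from 4961 TPM in RhoA het 5 to 9376 TPM in RhoA het 6. Of the 8, 4 had log2 fold changes above 0 and 4 below, and 0 were called. Pax7, which defines these cells, was at 49.6, 71.2, 100.1 and 60.1 TPM in controls 2, 5, 7 and 8 and at 46.6, 55.4, 56.5 and 46.9 TPM in RhoA het 5, 6, 7 and 8. Its log2 fold change was -0.51 (SE 0.18), with an unadjusted p of 0.0173 in edgeR. RhoA het 6 also held the most of the 10 endothelial markers, 460 TPM in sum against 42.3 to 122 in the other libraries. Both libraries numbered 5 stood apart in genes of cell division: 9 of the 10 cell cycle genes (all but Pcna) summed to 177 TPM in control 5 and 115 TPM in RhoA het 5, against 14.7 to 24.9 TPM in the other 6, with Mki67 at 20.5 and 13 TPM against at most 1.16 TPM. The same libraries had the highest sums of fibro-adipogenic markers, 4422 and 3715 TPM against 917 to 1972 TPM. Col1a1 and Col3a1 carried this, while Dcn, another of these markers, was at 176 and 321 TPM against 271 to 1141 TPM.

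The 89 genes together made up 15973, 17383, 16992 and 17604 TPM in controls 2, 5, 7 and 8 and 18834, 15608, 15534 and 15902 TPM in RhoA het 5, 6, 7 and 8, or 1.55% to 1.88% of all TPM. The groups overlapped, and RhoA het 5 was above every control. Levels were uneven: 50 genes had a mean of at least 100 TPM and carried 90.9% of the total, 31 lay between 10 and 100 TPM, and 8 lay below 10 TPM. The median of the 89 means was 121 TPM.

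Cox4i1 had the highest level. It encodes the nuclear subunit that helps to assemble complex IV and carries an ATP-binding regulatory site, and it lies on chromosome 8 from 121394961 to 121400946 (mm39, as are all gene coordinates here). It stood at 1256, 1184, 1210 and 1348 TPM in controls 2, 5, 7 and 8 and at 1199, 1147, 1036 and 1105 TPM in RhoA het 5, 6, 7 and 8. Cox8a followed with a mean of 1049 TPM, Atp5b, the catalytic beta subunit of ATP synthase, with 955 TPM, and Cox6a1 with 953 TPM. Atp5b and Cox6a1 could not be ordered, since each ranged more widely over the libraries than the gap between them. Uqcrh, the hinge protein of complex III that binds cytochrome c1, led its complex at 690 TPM. In complex I the X-linked Ndufa1, at 402 TPM, and Ndufa2, at 399 TPM, were highest and could not be ordered. The shorter Atp5o record, whose 530 exon bases all lie in exons of other genes and so could not be assigned under the counting options, was at 0. Cox8c, the testis form of subunit VIII, was at 0 counts in every library. Taken over unscaled total counts, this allows a level of up to 0.117 to 0.157 CPM in a library. The other CPM given here use scaled library sizes. The limit covers counting error only.

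**Figure D1:**
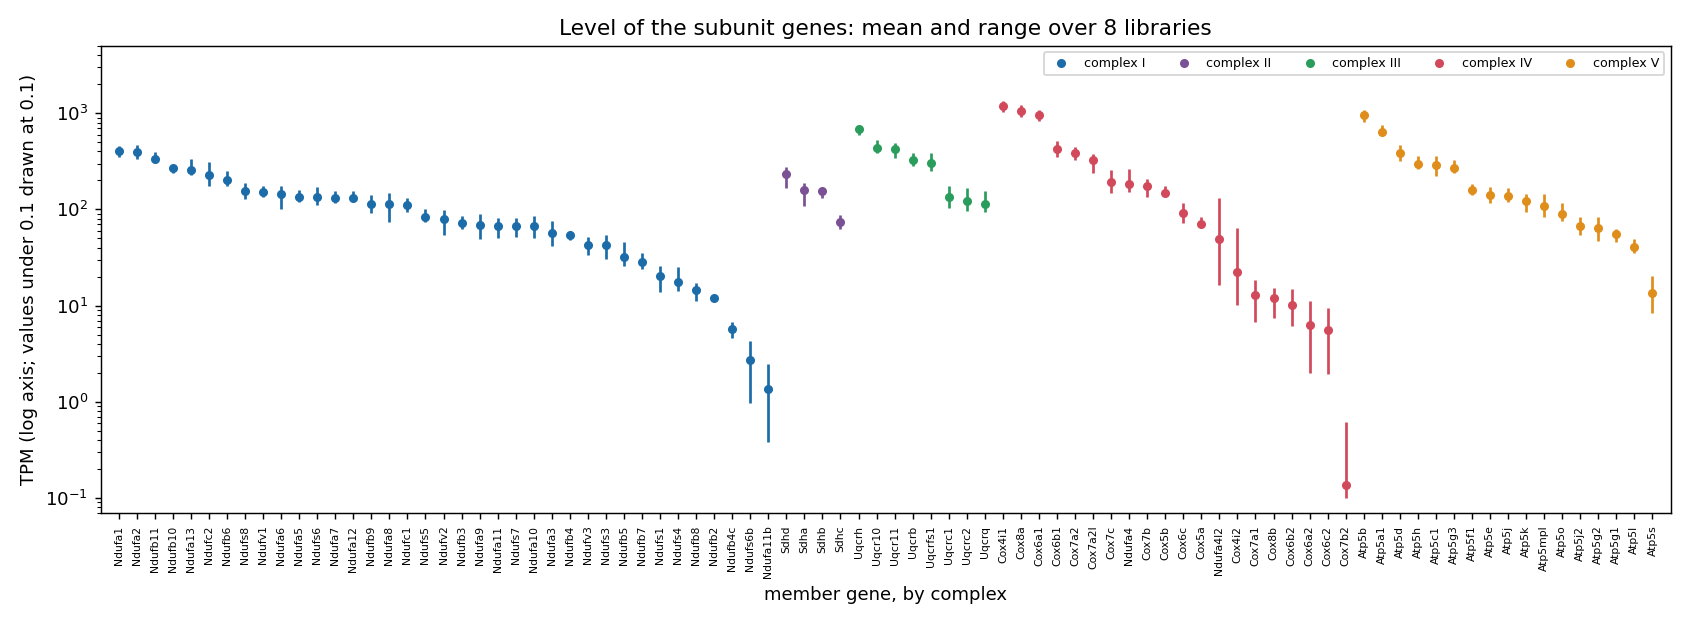
Mean level over the 8 libraries (point) and range from the lowest to the highest library (line) of the subunit genes in TPM on a log axis, by complex; Cox8c and the Atp5o record at 0 are not drawn. Levels run from 1185 TPM for Cox4i1 to 0.137 TPM for Cox7b2, and the longest lines among well-measured genes belong to Ndufa4l2 and Cox4i2.

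The order of levels depends on the length that each gene is divided by. The deposited TPM use the union of all annotated exons, which for these genes was a median of 1.64 times as long as the principal transcript (82 tested genes with a value) and over 2 times as long for 29. Atp5l, the g subunit of ATP synthase, had a model of 6443 bases against a transcript of 544 bases, and moved from rank 70 to rank 19 when its counts were divided by the transcript length. Cox6c moved from 51 to 15, Atp5j from 38 to 13 and Atp5e from 37 to 11. Cox4i1 was first on both scales. For a single gene this length is the same in every library, and comparisons between groups in CPM do not use it. Sums of TPM weight each gene by it, and TPM are rescaled by a total of length-divided counts. For all 89 genes summed, the log2 ratio of RhoA het over control was -0.045 in TPM and -0.13 in CPM.

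Between the groups, none of the 83 tested genes passed an adjusted p under 0.05 in edgeR, as for all genes: 0 of 15660 were called (0%). At an unadjusted p under 0.05 there were again 0 of 83 subunit genes, against 2.38% of all genes (372), and DESeq2 gave 0 of 83 against 2.2%. The fitted log2 fold changes of RhoA het over control ran from -0.52 to 0.72. They were below 0 for 71 of 83 genes (85.5%), against 50.1% of all genes, with a median of -0.12, against -0.00071. These genes share libraries and vary together, so the count says how they lie in these 8 libraries and is not 83 separate observations.

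This split moved with the scale and with the libraries. With limma on log2(TPM + 1), 58 of 86 genes (67.4%) lay below 0, against 34.4% of all genes, with medians of -0.036 and 0.068. That scale moved genes as a whole up. The limma counts given below for complexes and lists stand against 34.4%, and the edgeR counts over all libraries against 50.1%. In the 6 libraries numbered 5, 7 and 8, without control 2 and RhoA het 6, 75 of 83 (90.4%) lay below 0, against 54.2%, with medians of -0.085 and -0.023. Leaving out control 2 alone gave a median of -0.067, and leaving out control 5 or RhoA het 5 gave -0.18 in each case. The libraries numbered 5 were those high in cell cycle genes, Col1a1 and Col3a1. Without either of them, 75 of 83 (90.4%) lay below 0 against 50.1% of all genes, and the medians were -0.25 and -0.00058. In that fit, chosen after seeing the data, 15 of 83 were lower at an unadjusted p under 0.05 (Cox7a2 at -0.50 and Atp5e at -0.44 among them), against 1.99% of all genes, and 0 passed the adjusted threshold (0%). The part of cell division or of those collagen genes in the subunit values was not tested. Without control 5, 5 genes (Cox7a2, Cox4i1, Cox7b, Atp5g1 and Uqcrb) were lower at an unadjusted p under 0.05, against 2.32% of all genes lower at that p. Without RhoA het 5 there were 3 of 84 (Cox7a2, Atp5e and Atp5mpl), against 0.889%, and without RhoA het 6 there was 1 (Ndufa6), against 0.73%. None of these passed the adjusted threshold. In the 3 pairs of same-numbered libraries, fitted as blocks, 0 of 83 were called against 0.0127% of all genes, and 2 of 83 (2.41%) had an unadjusted p under 0.05 against 5.26%.

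The data bound the size of any difference more tightly for these genes than for most. The median SE of the log2 fold change was 0.15 for the subunit genes and 0.25 for all genes tested. The 95% interval lay within a 2-fold change either way for 80 of 83 genes and within 1.5-fold for 71. Over the 8 libraries, the range of log2 CPM had a median of 0.55 for the subunit genes, 0.96 for all genes, and 0.67 for 5920 genes of similar level. It exceeded 1 for 6 subunit genes, which were Cox4i2, Ndufa4l2, Cox6a2, Cox6b2, Cox7a1 and Cox8b, and for 47.8% of all genes. All 6 are restricted or alternative forms of complex IV subunits, and 5 of them, Ndufa4l2 being the exception, had a mean under 25 TPM.

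**Figure D2:**
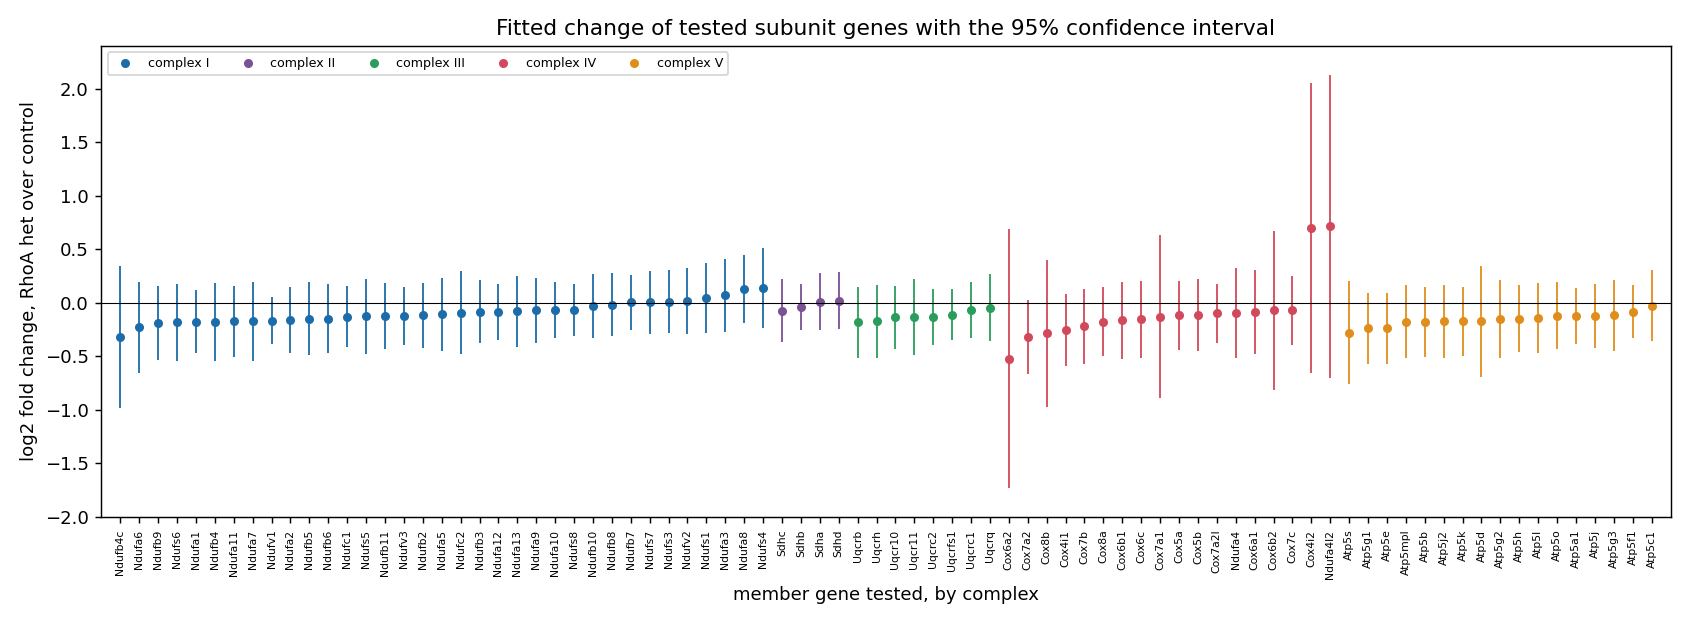
Fitted log2 fold change (RhoA het over control, edgeR) of the tested subunit genes with its 95% confidence interval, by complex and in rising order within it; the line marks 0. Most points lie a little below 0, and every interval includes 0, the widest being those of Ndufa4l2, Cox4i2 and Cox6a2.

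Complex I oxidises NADH through subunits that carry flavin and iron-sulfur clusters. Its 38 genes summed to 4444 ± 281 TPM (SD, n = 4) in control and 4379 ± 527 TPM (SD, n = 4) in RhoA het libraries, 28 of its 36 tested genes having log2 fold changes below 0 and 8 above, with a median of -0.10, against 21 below and 17 above of 38 with limma on log2(TPM + 1). In that limma fit 34.4% of all genes lay below 0. RhoA het 5 stood alone at 5168 TPM, the other 3 RhoA het libraries at 4090 to 4152 TPM. Without RhoA het 5 the log2 ratio of the sums was -0.11, and without 1 or another of the remaining libraries it ran up to 0.01.

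Ndufv1 holds the flavin that accepts electrons from NADH and lies on chromosome 19 from 4057384 to 4062806. It was at 137, 130, 123 and 136 CPM in controls 2, 5, 7 and 8 and at 113, 122, 120 and 113 CPM in RhoA het 5, 6, 7 and 8. Every control was above every RhoA het library on this scale, the only tested subunit gene of which that was true in either direction. Of the 15660 genes tested, 0.792% had all controls above all RhoA het libraries and 1.02% the reverse, 1.81% in all, so 1 of 83 is close to that background. The means were 131 ± 6.69 and 117 ± 4.40 CPM (SD, n = 4 each), the log2 fold change was -0.17 (SE 0.10), edgeR gave an unadjusted p of 0.122, and the two-sided exact permutation test gave 0.0286, the smallest p that 4 against 4 allows. On the TPM scale the groups overlapped, at 134 to 177 TPM in control and 142 to 152 TPM in RhoA het libraries.

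Ndufs1, which carries iron-sulfur clusters of the electron path, was at 13.7, 26, 22.1 and 16.3 TPM in controls 2, 5, 7 and 8 and at 22.7, 16.6, 23.9 and 20.4 TPM in RhoA het 5, 6, 7 and 8. Its log2 fold change was 0.04 (SE 0.15). It overlaps exons of genes on the opposite strand, Eef1b2 among them, and because the counting command sets no strand option, fragments from such stretches could not be assigned by strand. In all, 27 of the 89 genes share exon bases with a gene on the opposite strand, and 14 share more than 10% of their exon bases with another gene.

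The complex I genes with the smallest p above 0 were accessory subunits. Ndufa8 was at 74.6, 138, 109 and 104 TPM in controls 2, 5, 7 and 8 and at 148, 118, 108 and 111 TPM in RhoA het 5, 6, 7 and 8, the groups overlapping, with a log2 fold change of 0.13 (SE 0.14). Ndufs4, whose loss in mice gives a mitochondrial encephalopathy, had 0.14 (SE 0.17) and rested on RhoA het 5 at 25.3 TPM, since the other 7 libraries spanned 14.1 to 19.3 TPM; without RhoA het 5 it was -0.0037. Ndufa3 had 0.07 (SE 0.15). Ndufa6, a subunit of the matrix arm, had -0.23 (SE 0.19) and was at 175 TPM in RhoA het 6 against 101 to 140 TPM in the other RhoA het libraries.

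X-linked subunits are given because control 2 and RhoA het 6 differ from the rest in counts from the sex chromosomes. Ndufa1, a membrane-arm subunit, was at 389, 396, 426 and 442 TPM in controls 2, 5, 7 and 8 and at 459, 352, 354 and 396 TPM in RhoA het 5, 6, 7 and 8. Control 2 and RhoA het 6 were the lowest of their groups in TPM, but not in CPM, where control 2 was the highest control at 63.1 CPM and RhoA het 6, at 47.9 CPM, was above RhoA het 7. Ndufb11, also in the membrane arm, spanned 324 to 360 TPM in control and 305 to 399 TPM in RhoA het libraries. Cox7b of complex IV spanned 162 to 193 TPM and 136 to 205 TPM. The 3 log2 fold changes, in that order, were -0.18 (SE 0.13), -0.12 (SE 0.14) and -0.22 (SE 0.16).

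Complex II links the tricarboxylic acid cycle to the chain and had the median log2 fold change nearest to 0, at -0.02. Its 4 genes summed to 467, 697, 679 and 595 TPM in controls 2, 5, 7 and 8 and to 662, 606, 651 and 619 TPM in RhoA het 5, 6, 7 and 8. Control 2 was below every other library. The log2 ratio of the sums was 0.06, -0.01 on the CPM scale and -0.05 without control 2, so its sign depended on the scale and on that library. All 4 genes lay above 0 with limma on log2(TPM + 1), where 34.4% of all genes lay below 0. All 4 lay below 0 in the 6 libraries numbered 5, 7 and 8, where 54.2% of all genes did. Sdha, the flavoprotein that oxidises succinate, had a log2 fold change of 0.01 (SE 0.12). Sdhb, its iron-sulfur partner, had -0.04 (SE 0.10), with means of 110 ± 5.50 and 107 ± 1.28 CPM (SD, n = 4 each; control first). For Sdhb the highest library was 1.12 times the lowest in CPM, the narrowest span of any tested subunit gene.

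Complex III passes electrons from ubiquinol to cytochrome c. Its 8 genes summed to 2603 ± 122 TPM (SD, n = 4) in control and 2511 ± 250 TPM (SD, n = 4) in RhoA het libraries, and all 8 had log2 fold changes below 0, from -0.18 to -0.05, against 6 of 8 with limma on log2(TPM + 1). Uqcrfs1, the Rieske iron-sulfur protein, was at 252, 382, 296 and 306 TPM in controls 2, 5, 7 and 8 and at 332, 289, 304 and 277 TPM in RhoA het 5, 6, 7 and 8. Its groups overlapped throughout, and its log2 fold change was -0.11 (SE 0.11). Uqcrc1, a core subunit, spanned 105 to 176 TPM in control and 116 to 152 TPM in RhoA het libraries, with -0.07 (SE 0.12).

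Complex V, which makes ATP as protons flow back, had 17 of 17 tested genes below 0 (16 of 17 with limma on log2(TPM + 1)), with a median of -0.15 and a range from -0.28 to -0.03. The sums were 3902 ± 240 TPM (SD, n = 4) in control and 3754 ± 278 TPM (SD, n = 4) in RhoA het libraries, which overlapped. Atp5b was at 976, 1078, 880 and 999.5 TPM in controls 2, 5, 7 and 8 and at 941, 817, 960 and 989 TPM in RhoA het 5, 6, 7 and 8. Its log2 fold change was -0.18 (SE 0.15). Atp5a1, the alpha subunit that alternates with beta in the catalytic head, spanned 588 to 750 TPM and 604 to 670 TPM, with -0.12 (SE 0.12). Atp5g1, 1 of the genes for the c subunit that forms the rotor ring, had -0.24 (SE 0.15; edgeR unadjusted p 0.138), and Atp5e, the epsilon subunit of the central stalk, had -0.24 (SE 0.15; edgeR unadjusted p 0.142). Atp5e was at 171 TPM in RhoA het 5 against 115 to 128 TPM in the other RhoA het libraries.

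**Figure D3:**
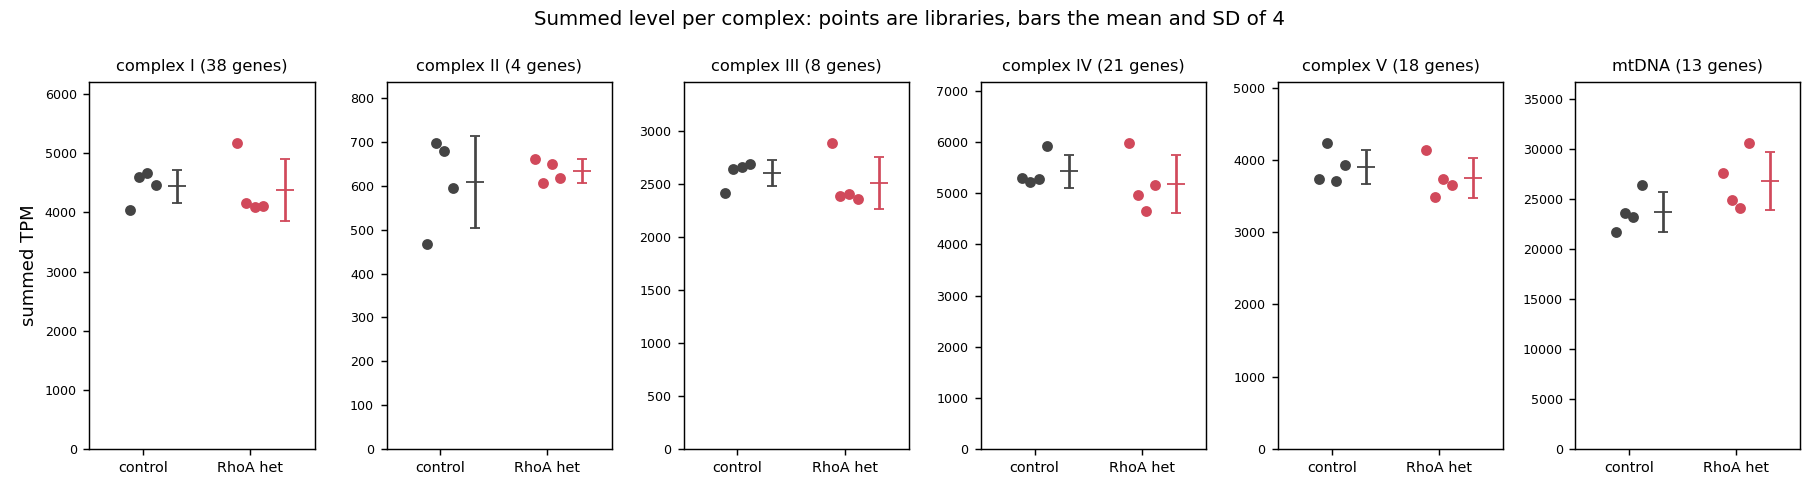
Summed TPM of the genes of each complex and of the 13 genes encoded in mitochondrial DNA in each library (points), with the mean and SD of the 4 libraries of a group beside them; all axes start at 0 and differ in scale. The groups overlap in every panel, and in complexes I and III RhoA het 5 lies apart from the other 3 RhoA het libraries.

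Complex IV reduces oxygen to water. Its 21 genes, with Ndufa4 and Ndufa4l2 counted here because NDUFA4 is found in complex IV, summed to 5430 ± 328 TPM (SD, n = 4) in control and 5190 ± 567 TPM (SD, n = 4) in RhoA het libraries. Of 18 tested genes, 16 lay below 0 and 2 above, and with limma on log2(TPM + 1) 15 of 19 lay below. Cox7a2, the widely expressed form of subunit VIIa, had the smallest p of any subunit gene in edgeR over all 8 libraries. It lies on chromosome 9 from 79662643 to 79667160 and was at 157, 102, 114 and 137 CPM in controls 2, 5, 7 and 8 and at 118, 99.7, 92.3 and 98.6 CPM in RhoA het 5, 6, 7 and 8. RhoA het 5 lay inside the control range, and the other 3 lay below every control. That put RhoA het libraries at -0.32 on the log2 scale (SE 0.15, 95% interval from -0.67 to 0.02), with p 0.0655 before and 1 after adjustment in edgeR. The exact permutation test, two-sided, gave 0.114.

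The other widely expressed forms also lay below 0, with 95% intervals that include 0. Cox4i1 had a log2 fold change of -0.25 (SE 0.15), Cox8a, a small subunit without which the complex is unstable, -0.17 (SE 0.14), Cox6b1, which joins the dimer on the side facing cytochrome c, -0.16 (SE 0.16), and Cox6a1 -0.09 (SE 0.17). Cox5a, which binds thyroid hormone and adjoins subunit IV, had -0.12 (SE 0.14), at 67.1 to 74.0 TPM in control and 64.6 to 82.8 TPM in RhoA het libraries. For Cox6a1 the sign depended on the scale, being 0.02 with limma on log2(TPM + 1), a fit in which 34.4% of all genes lay below 0.

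The restricted forms were a small share of each pair, except Ndufa4l2. Of the summed TPM of the pair, Cox8b took a median of 1.16% over the 8 libraries (lowest 0.804%, highest 1.57%), Cox6b2 2.13% (1.39% to 3.23%), Cox7a1 3.49% (1.75% to 5.07%), Cox6a2 0.583% (0.207% to 1.29%) and Cox4i2 1.08% (0.848% to 5.47%). Ndufa4l2 took a median of 17.2% of its pair, with a low of 6.76% in control 5 and a high of 44.1% in RhoA het 8. With counts divided by the principal transcript in place of the exon model, which is 2.60 times as long for Ndufa4, that median was 8.58% (3.16% to 26.2%). On the same scale the median was 3.66% for Cox6b2 and 0.571% for Cox4i2. Cox7b2 had 1, 2 and 1 counts in controls 2, 5 and 7 and 0 in the other 5 libraries.

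The sequence around the start site is shown for 3 of these widely expressed genes and a pair of restricted ones, so that the letters searched for can be seen in place. The windows are from RefSeq (GRCm38.p6), run 250 bases before to 50 after the start, 5′ to 3′ on the gene's strand, and have in capitals every match on either strand to the motifs searched. These were GCGCA and GCGC around any 1 base for NRF1, CCGGAAG for ETS factors such as GABP, AAGATGGC for YY1, AAGGTCA for the estrogen-related receptors, CCAAT, and the E-box CAGCTG that myogenic factors bind; no pair of marked matches overlaps in the windows shown. The positions are chr5:115348909-115349208 (minus strand) for Cox6a1, chr19:7217567-7217866 (minus) for Cox8a, chr9:79759804-79760103 (minus) for Cox7a2, chr7:30183921-30184220 (plus) for Cox7a1 and chr7:140900397-140900696 (minus) for Cox8b.
Cox6a1: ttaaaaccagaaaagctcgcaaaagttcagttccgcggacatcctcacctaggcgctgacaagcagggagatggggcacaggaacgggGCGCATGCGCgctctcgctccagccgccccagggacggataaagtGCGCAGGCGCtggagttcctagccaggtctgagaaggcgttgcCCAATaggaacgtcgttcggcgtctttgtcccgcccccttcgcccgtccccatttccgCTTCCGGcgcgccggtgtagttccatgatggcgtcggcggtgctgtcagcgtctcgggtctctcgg
Cox8a: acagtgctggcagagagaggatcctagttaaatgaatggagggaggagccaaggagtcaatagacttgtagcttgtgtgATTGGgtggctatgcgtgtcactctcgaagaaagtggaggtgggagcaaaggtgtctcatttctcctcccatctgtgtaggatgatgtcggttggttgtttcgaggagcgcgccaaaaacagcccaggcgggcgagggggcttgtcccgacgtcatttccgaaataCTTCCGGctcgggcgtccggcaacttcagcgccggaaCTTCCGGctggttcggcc
Cox7a2: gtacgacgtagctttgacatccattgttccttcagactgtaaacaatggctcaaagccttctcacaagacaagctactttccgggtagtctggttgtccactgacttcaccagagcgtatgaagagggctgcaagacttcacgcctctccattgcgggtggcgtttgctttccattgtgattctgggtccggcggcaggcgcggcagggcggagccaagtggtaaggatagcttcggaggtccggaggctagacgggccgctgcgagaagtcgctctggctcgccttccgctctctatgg
Cox7a1: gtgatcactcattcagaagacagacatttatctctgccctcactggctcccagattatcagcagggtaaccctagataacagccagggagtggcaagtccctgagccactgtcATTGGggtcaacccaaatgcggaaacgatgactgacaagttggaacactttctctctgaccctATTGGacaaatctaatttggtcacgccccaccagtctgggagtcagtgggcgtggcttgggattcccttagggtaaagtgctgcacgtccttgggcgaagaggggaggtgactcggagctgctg
Cox8b: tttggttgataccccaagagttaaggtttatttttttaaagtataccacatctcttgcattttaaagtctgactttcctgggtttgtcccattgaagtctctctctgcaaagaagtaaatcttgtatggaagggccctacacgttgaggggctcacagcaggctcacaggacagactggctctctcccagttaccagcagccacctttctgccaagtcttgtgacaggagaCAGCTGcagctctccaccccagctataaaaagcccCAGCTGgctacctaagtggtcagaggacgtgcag

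In these windows Cox6a1 had 2 matches for NRF1, 1 for ETS and 1 CCAAT, and Cox8a had 2 for ETS and 1 CCAAT. Cox7a1, the heart and skeletal muscle form of subunit VIIa, had 2 CCAAT matches, and Cox8b, the muscle form of subunit VIII, had 2 E-boxes. Cox7a2 had no match to any of the 6, which says only that these letters are not in its window. Under the 88 symbols, 68 had a window in the table. NRF1 letters occurred in 17 of them (25%) against 5.19% of 27025 genes, YY1 letters in 10 (14.7%) against 3.19%, ETS letters in 16 (23.5%) against 9.93% and the receptor letters in 8 (11.8%) against 5.38%. CCAAT was near the level of all genes, at 44.1% against 41.1%, and the E-box was at 8.82% against 18.3%. The 27025 genes were not matched to the subunit genes in base composition. Of the 4 restricted forms with a window (Cox7a1, Cox8b, Cox6b2 and Cox7b2), 0 held NRF1, ETS, YY1 or receptor letters, and of the 6 widely expressed partners with one, 3 (Cox7a2, Cox7b and Ndufa4) held none either. With so few windows these counts do not settle whether the forms differ, which was not tested. A match is a string of letters and not a measured binding site.

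Cox4i2, the form of subunit IV known from lung and from oxygen-sensing cells, had the widest range of log2 CPM among tested subunit genes after Ndufa4l2. It lies on chromosome 2 from 152596093 to 152606957. Cox4i2 was at 10.7, 12.7, 13.5 and 29.7 TPM in controls 2, 5, 7 and 8 and at 11, 28.8, 10.2 and 63.9 TPM in RhoA het 5, 6, 7 and 8. Both libraries numbered 8 and RhoA het 6 were high, and the other 5 lay within 10.2 to 13.5 TPM irrespective of group. The fitted change was 0.70 (SE 0.61, with a 95% interval from -0.66 to 2.05), and p was 0.278 unadjusted in edgeR and 0.714 by exact permutation, two-sided. It was -0.05 without RhoA het 8, 1.15 without control 8 and 0.17 with the replicate number as a block.

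Ndufa4l2, a paralogue of Ndufa4 known as a target of hypoxia-inducible factor, lies on chromosome 10 from 127350836 to 127353023. It was at 23.8, 16.4, 37.7 and 67.2 TPM in controls 2, 5, 7 and 8 and at 20.3, 74.1, 26.3 and 132 TPM in RhoA het 5, 6, 7 and 8. The same 3 libraries were high. The fitted change was 0.72 (SE 0.63, with a 95% interval from -0.70 to 2.13), and p was 0.284 unadjusted in edgeR and 0.571 by exact permutation, two-sided. It was 0.10 without RhoA het 8, 1.21 without control 8 and 0.22 with the block. Its highest library was 8.65 times its lowest in CPM, against 6.27 times for Cox4i2.

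Of the 8 markers of mural cells, the pericytes and smooth muscle cells of vessels, Myh11 and Pdgfrb were highest in the same 3 libraries, and the others followed other orders. Myh11, smooth muscle myosin heavy chain, was at 10.6, 8.55, 18.4 and 50 TPM in controls 2, 5, 7 and 8 and at 9.95, 50.2, 8.93 and 134 TPM in RhoA het 5, 6, 7 and 8. Pdgfrb was highest in the same 3, at 26.4 TPM in control 8, 27.1 TPM in RhoA het 6 and 56.5 TPM in RhoA het 8, against 12.8 to 21.5 TPM in the rest. Rgs5, a pericyte marker, was at 600 and 678 TPM in RhoA het 6 and 8 against 144 to 357 TPM elsewhere, control 8 being at 241 TPM. Kcnj8 and Abcc9 were lower in control 8 (18.1 and 7.80 TPM) than in control 2 (28.3 and 14.8 TPM), and Acta2 was higher in control 5 than in RhoA het 6 (1012 and 510 TPM). These 6 were named after their values were seen. The 8 mural markers summed to 589 to 1369 TPM in control and 734 to 2335 TPM in RhoA het libraries, 7 of 8 had log2 fold changes above 0, and none was at 0 in all libraries. The sum was also high in control 5, at 1369 TPM, of which Acta2 made up 1012 TPM. In that library Cox4i2, Ndufa4l2 and Myh11 were low. The part of the mural markers in the Cox4i2 and Ndufa4l2 values was not tested. In bulk RNA, more or fewer cells of a type and more or less RNA per cell cannot be told apart.

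Cox6a2, the heart and skeletal muscle form of subunit VIa, was at 3.41, 11.2, 11 and 4.01 TPM in controls 2, 5, 7 and 8 and at 8.64, 7.52, 2.63 and 2.01 TPM in RhoA het 5, 6, 7 and 8, resting on 8 to 60 counts a library. Control 5 and 7 and RhoA het 5 and 6 were above the other 4. The sum of 12 markers of differentiated myofibres, such as Acta1 and Ckm, split the libraries in the same way: 1056 and 399 TPM in controls 5 and 7 and 424 and 854 TPM in RhoA het 5 and 6, against 111 and 143 TPM in controls 2 and 8 and 129 and 86.0 TPM in RhoA het 7 and 8. None of the 12 was at 0 in all libraries, and their part in the Cox6a2 values was not tested. The log2 fold change of Cox6a2 was -0.52 (SE 0.54; edgeR unadjusted p 0.355). With the replicate block it was -1.14 (unadjusted p 0.0261, adjusted p 0.868), where the myofibre markers had a median of -1.22 and 2 of them were called.

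Cox7a1 and Cox8b, also forms of striated muscle, followed another order. Cox7a1 was at 7.65, 14.3, 14.5 and 16.1 TPM in controls 2, 5, 7 and 8 and at 11.9, 12.8, 6.69 and 18.5 TPM in RhoA het 5, 6, 7 and 8, with its highest value in RhoA het 8, where myofibre markers were lowest. Cox8b spanned 12 to 13.9 TPM in control and 7.46 to 15.4 TPM in RhoA het libraries. Their log2 fold changes were -0.13 (SE 0.34) and -0.29 (SE 0.31). Cox6b2, the testis form, had -0.07 (SE 0.33), and Ndufb4c, the tested subunit gene with the lowest mean at 5.67 TPM, had -0.32 (SE 0.30).

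**Figure D4:**
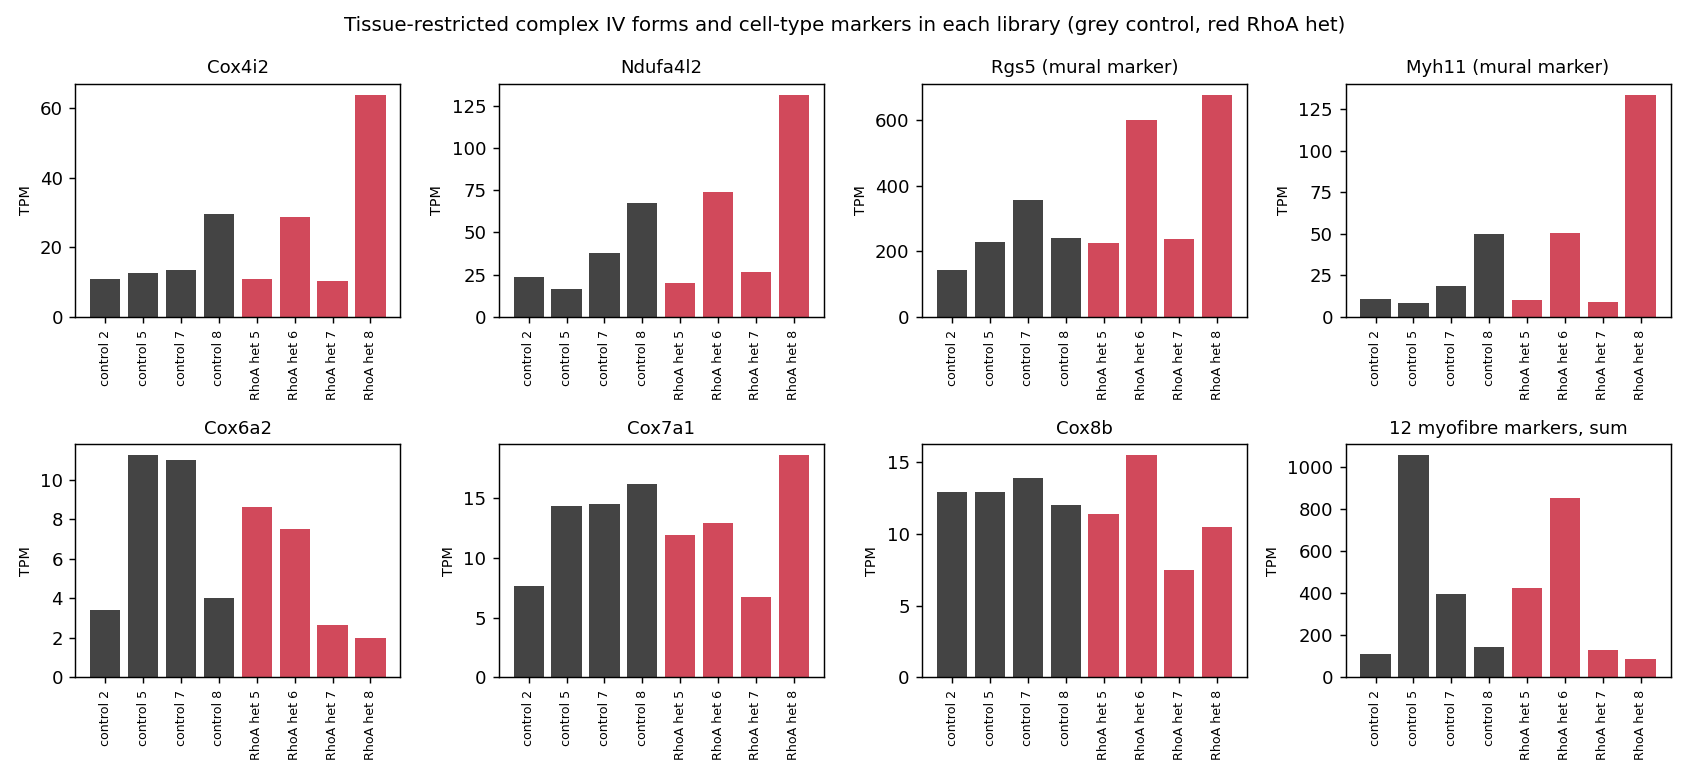
TPM in each library (bars, from 0; grey control, red RhoA het) of 5 restricted forms of complex IV subunits, of the mural markers Rgs5 and Myh11, and of the sum of 12 myofibre markers. Cox4i2, Ndufa4l2 and Myh11 are highest in control 8, RhoA het 6 and RhoA het 8, and Cox6a2 and the myofibre markers in controls 5 and 7 and RhoA het 5 and 6.

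Exon models were shorter among subunit genes than among all genes. Of 83 tested, 22 were up to 1000 bases and 29 over 2000, against 1363 and 12411 of 15660. Short genes as a whole lay lower in the RhoA het libraries. Among all tested genes with an exon model of up to 1000 bases, 66.3% of 1363 lay below 0 (median log2 fold change -0.14), against 59.4% of 1886 genes over 1000 and up to 2000 bases (-0.06) and 47.0% of 12411 longer genes (0.01). For the subunit genes the shares were 90.9% of 22, 87.5% of 32 and 79.3% of 29, with medians of -0.15, -0.11 and -0.12. The subunit genes of up to 1000 bases thus lay near all genes of that length in median, and those over 2000 bases lay below theirs. By library, the median deviation of subunit genes of up to 1000 bases from their own means was 0.27, -0.16, 0.01 and 0.19 log2 CPM in controls 2, 5, 7 and 8 and 0.12, -0.07, -0.23 and -0.10 in RhoA het 5, 6, 7 and 8. All genes of that length gave 0.23, -0.18, 0.11 and 0.15, and 0.01, -0.03, -0.07 and -0.09. The part of length in the subunit values was not tested.

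**Figure D5:**
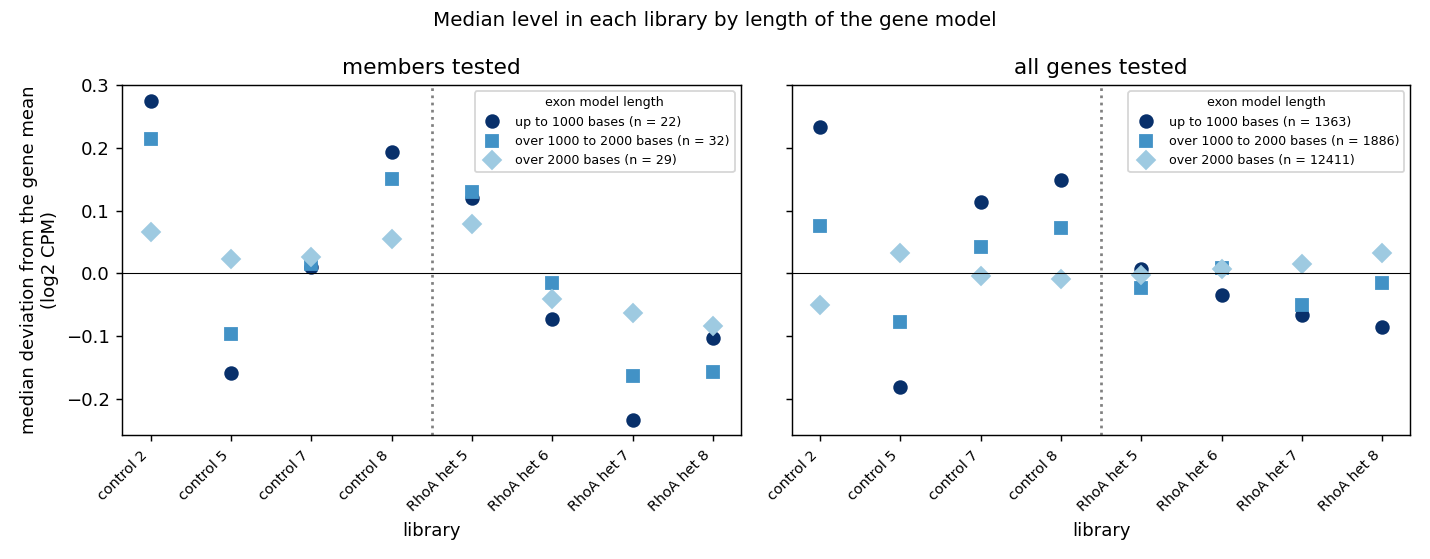
Median deviation of log2 CPM from each gene's mean over the 8 libraries, per library, for 3 classes of exon model length, in the 83 tested subunit genes and in all 15660 tested genes; the dotted line separates control from RhoA het. In both panels the shortest class is highest in control 2 and is below 0 in control 5 and RhoA het 6, 7 and 8.

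The 13 subunits encoded in mitochondrial DNA, which join the nuclear ones in complexes I, III, IV and V, did not lie on the same side. They summed to 23736 ± 2002 TPM (SD, n = 4) in control and 26829 ± 2933 TPM (SD, n = 4) in RhoA het libraries, 8 above 0 and 5 below (10 and 3 with limma on log2(TPM + 1)), with a median log2 fold change of 0.11 and 0 called. In that limma fit 34.4% of all genes lay below 0. In edgeR mt-Nd2 had 0.17 (SE 0.14), mt-Atp6 0.17 (SE 0.14), mt-Nd3 -0.38 (SE 0.23) and mt-Co3 -0.17 (SE 0.19). The sums overlapped between groups, and whether nuclear and mitochondrial subunits differ from each other was not tested.

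Genes that build or regulate the complexes gave 0 called as well. Of 42 tested assembly factors, 27 lay below 0 and 15 above (median -0.07), against 18 and 23 with limma on log2(TPM + 1). Of all genes, 50.1% lay below 0 in edgeR and 34.4% in that limma fit. Nubpl, which delivers iron-sulfur clusters to complex I, had -0.51 (SE 0.19; edgeR unadjusted p 0.0217), the complex IV factors Cox16 and Cox11 had -0.39 (SE 0.20) and 0.26 (SE 0.24), and the complex I factor Ndufaf7 had 0.14 (SE 0.19). Of 15 regulators of mitochondrial biogenesis, 10 lay below 0 and 5 above (median -0.07), against 4 and 9 with limma. Tfam, which packages and transcribes mitochondrial DNA, had -0.18 (SE 0.11), Tfb1m, which methylates mitochondrial ribosomal RNA, -0.62 (SE 0.46), Ppargc1a, the coactivator PGC-1α, 0.39 (SE 0.56) and Gabpb1, a subunit of the ETS factor GABP, 0.05 (SE 0.16).

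Fuel pathways lay mostly below 0 in edgeR, where 50.1% of all genes did. They did so less often with limma, where 34.4% of all genes did. Of 18 genes of pyruvate dehydrogenase and the tricarboxylic acid cycle, 15 lay below 0 and 3 above (median -0.07), against 8 and 10 with limma on log2(TPM + 1). Idh3a stood at -0.14 (SE 0.11), Cs, citrate synthase, at -0.13 (SE 0.12), Pdhx, a part of pyruvate dehydrogenase, at 0.12 (SE 0.15) and Suclg1 at 0.07 (SE 0.12). Of 15 tested glycolysis genes, 12 lay below 0 and 3 above (median -0.10), against 9 and 7 with limma, with Pgk1 at -0.22 (SE 0.11), Pgam1 at -0.20 (SE 0.12) and Hk2 at 0.11 (SE 0.24). Of 6 electron carriers and subunits outside the symbol rule, 5 lay below 0 and 1 above (median -0.06), against 2 and 4 with limma. Etfdh, which passes electrons from fatty acid oxidation to ubiquinone, had 0.05 (SE 0.14), and its donor subunits Etfb and Etfa had -0.24 (SE 0.20) and -0.08 (SE 0.12). No gene of these lists passed the adjusted threshold.

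Other cell types were present at levels that varied by library. Summed over their lists, fibro-adipogenic markers ran from 917 to 4422 TPM in control and from 1682 to 3715 TPM in RhoA het libraries, Schwann cell markers from 127 to 230 and 136 to 292 TPM, immune markers from 6.14 to 16.0 and 10.2 to 18.2 TPM, erythroid markers from 8.68 to 623 and 12.1 to 1284 TPM, and all 10 cell cycle genes, of which Pcna was the most abundant, from 119 to 278 and 127 to 237 TPM. The 10 endothelial markers all lay above 0, with a median of 1.86, and with the block at a median of -0.05, where RhoA het 6 is not used. None of these lists had a marker called, and their part in the subunit values was not tested.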

How the data were processed

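RNA of 8 libraries was measured by paired-end sequencing after template-switching cDNA synthesis, per the labels' protocols. The authors deposited whole-number counts per gene, made with featureCounts 1.6.4 on assembly mm39 and GENCODE 34 without strand, multi-mapping or multi-overlap options, per the file headers; STAR, cutadapt, FastQC and DESeq2 are named in the submitters' processing notes. Fragments from near-identical copies, which many subunit genes have, can therefore be lost. The authors also deposited TPM, which equalled the counts divided by model length and rescaled (largest relative difference 2e-14). The counting command named 10 alignment files; 8 libraries were in the table, and the others were not analysed here. Symbols came from GENCODE 21 by identifier (51884 matched).

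Counts were tested with edgeR 4.0.16 (filterByExpr, TMM, quasi-likelihood F test, R 4.3.3) over all 15660 genes that passed the filter in 8 libraries, without covariates, with Benjamini-Hochberg adjustment and a threshold of 0.05; single genes also had an exact permutation test over 70 assignments. CPM use TMM-scaled library sizes, except in the limit for Cox8c, which uses total counts. Log2 CPM use a prior count of 2. The script was tested on simulated data. Depth was 19138763 to 25606342 counts per library. Alternatives used DESeq2 1.42.0, limma 3.58.1 on log2(TPM + 1) and log2(TPM + 0.1), other scalings and filters, the replicate block, each library left out and, added after seeing the data, both libraries numbered 5 left out. Numbers 5, 7 and 8 occur in the titles of both groups and were treated as pairs. Deviations from the group means correlated at 0.574, 0.349 and 0.5 between same-numbered libraries. Between others the mean was -0.237, but centring each group on its mean forces that value below 0 once same-numbered values are above 0. It is therefore no separate support for the pairing. What the numbers mark is not given in the sources used here.

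The subunit genes, the gene lists and the rule for named genes were chosen with earlier results of these data known. The rule named RhoA, up to 5 subunit genes per direction by smallest p, paralogue pairs, catalytic subunits, X-linked genes, extremes of level and range, and up to 2 genes per direction of each list. Ndufa2, Ndufa6, Atp5l, Cox6c, Atp5j, Uqcrh, Uqcrb, Atp5mpl, Pax7 and single markers were named after their values were seen. Complexes were assigned by symbol. The values of 1 subunit gene named by the rule are not reported or drawn here; it is counted in the totals. Motif matches were counted in RefSeq promoter windows of GRCm38.p6 and are descriptions.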

Additional observations from a re-analysis of the deposited data

Results flagged for a closer look

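Among 72 groups of 4 libraries tested for a library apart from the other 3 (a gap over range above Dixon's 95% critical value), 7 were marked, and chance marks about 1 in 20, or 3.6. In RhoA het 5, Atp5e was at 86.4 CPM against 65.4 to 67.4 CPM in the other RhoA het libraries, Ndufa4 at 105 CPM against 65.4 to 69.5 CPM, and the summed levels of complexes I and III were 5168 TPM and 2885 TPM, against 4090 to 4152 TPM and 2363 to 2407 TPM. In control 8, Cox4i2 was at 7.66 CPM against 2.79 to 3.27 CPM in the other controls, and complex IV summed to 5919 TPM against 5215 to 5307 TPM. Ndufa4 was at 62.1 CPM in control 7, below the 87.3 to 91.6 CPM of the other controls. RhoA het 5 accounts for 4 of the 7.

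Ndufb1-ps, left out by the symbol rule, is named like a pseudogene copy but had a mean of 88.5 TPM over the 8 libraries. Its level is that of an expressed subunit gene. It was at 77.9, 99.4, 95.4 and 98.1 TPM in controls 2, 5, 7 and 8 and at 93.8, 79.7, 83.1 and 81.0 TPM in RhoA het 5, 6, 7 and 8, with a log2 fold change of -0.21 (SE 0.11; edgeR unadjusted p 0.0747).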

How the results depend on the processing

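No subunit gene was called under any of the 18 alternatives, which changed the scaling, the filter, the test, the unit, the block or the libraries. Over all genes, 0 were called in each of them except with the replicate block, where 2 were; the block changed no call of a subunit gene, and 2 subunit genes, Ndufa6 (-0.37, p 0.0242) and Cox6a2 (-1.14, p 0.0261), had an unadjusted p under 0.05, 2.41% against 5.26% of all genes (827 of 15714). The biological coefficient of variation was 33.3% in the fit of all 8 libraries and 17.4% in the block fit. The block fit also leaves out control 2 and RhoA het 6, so these values do not isolate the block. The median log2 fold change of the subunit genes stayed below 0 in all 18, at -0.25 without the libraries numbered 5 (added after seeing the data) and from -0.18 to -0.07 with 1 library left out. Of 31 named subunit genes tested, 21 kept their sign throughout and 10 did not; all 10 but Cox4i2 had log2 fold changes of at most 0.14 in size. Of all genes, 34.4% lay below 0 with limma on log2(TPM + 1), against 50.1% in edgeR over all 8 libraries. With limma on log2(TPM + 1) and log2(TPM + 0.1) the sign turned for Cox6a1 (0.0208 and 0.02082), Cox6b2 (0.05021 and 0.05931), Sdhb (0.04135 and 0.04162) and Uqcrc1 (0.01719 and 0.01742), and with total counts for Sdhb (0.005965). With the block, or the same 6 libraries without it, it turned for Cox6a1 (0.01143 and 0.001429) and Sdha (-0.1056 and -0.1069). Without the libraries numbered 5 it turned for Ndufa3 (-0.0016). With 1 library left out, values ran from -0.0485 to 1.15 for Cox4i2, -0.199 to 0.0581 for Cox6a1, -0.273 to 0.188 for Cox6b2, -0.374 to 0.0727 for Cox7a1, -0.036 to 0.115 for Ndufa3, -0.0309 to 0.123 for Ndufs1, -0.0037 to 0.216 for Ndufs4 and -0.0665 to 0.0752 for Sdha. The cause of these turns was not tested. Counts were few in Cox6a2, Cox6b2, Cox7a1, Cox8b and Ndufb4c, at 8 to 114 a library.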
